A study of Mus musculus with 29 samples.

Results

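The levels of 9 genes of GABAergic neuron fate were followed through 8 RNA-seq libraries of mouse embryonic brain: the transcription factor genes Gata2, Gata3, Tal1, Tal2, Helt and Sox14, the GABA-synthesising enzyme genes Gad1 and Gad2, and the vesicular GABA transporter gene Slc32a1. They were taken from the count tables by symbol. They are 9 of the 25239 genes listed in the count tables, and all 9 were among the 15383 genes with enough counts to be tested. Sox14 passed the filter on low counts through the midbrain libraries alone, so its levels in the tissues are a description, and it is left out of the counts of members called.

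The libraries were made from poly(A) RNA of embryos at E11.5 and fall into 4 groups of 2 pools. The groups are wildtype forebrain, hs267-853 knockout forebrain, wildtype midbrain and hs654 knockout midbrain. The RNA-seq experiment asked how the loss of an enhancer alters gene expression in the tissue concerned. The labels give no strain, sex or zygosity, and name no target gene for either knockout. The label hs267-853 carries the numbers 267 and 853, and it does not say how many enhancers were deleted. Each pool joined dissected tissue of several embryos, so the 2 values of a group show the spread between pools and not between animals. A p-value here measures that spread only.

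GABA is the main inhibitory transmitter of the brain. It is made from glutamate by the enzymes that Gad1 (GAD67) and Gad2 (GAD65) encode, and it is loaded into synaptic vesicles by the transporter that Slc32a1 (VGAT) encodes. Neurons that make it arise under different regulators in different regions. In the embryonic midbrain and parts of the diencephalon, progenitors express the bHLH repressor gene Helt, and cells leaving the cycle switch on the zinc finger genes Gata2 and Gata3 and the bHLH genes Tal1 and Tal2, which act as selectors of GABAergic over glutamatergic identity. Sox14 marks GABAergic precursors downstream of them. In the telencephalon the corresponding work is done by the Dlx homeobox genes. Gata2, Gata3 and Tal1 also have long-known roles in blood and blood vessel precursors.

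Promoter windows were drawn from RefSeq (GRCm38.p6, the assembly also known as mm10) for Tal2 and Sox14, the members that differed most between the tissues, and for Gad1 and Gad2, a pair of genes for the same reaction of which Gad1 passed the test between the tissues and Gad2 did not. Each is the 250 bases before the start given in the RefSeq promoter table, 5′ to 3′ on the gene's strand. For Gad1 and Gad2 that start lies inside the gene's span, downstream of its first base. Capitals mark GATA motifs (the form AGATAA, its variant AGATAG, the form TGATAA or its variant TGATAG, on either strand) and E-boxes (CANNTG, searched on both strands), the core motifs read by GATA and by bHLH factors. The Tal2 window is chr4:53779451-53779700 on the plus strand, the Sox14 window chr9:99876171-99876420 on the minus strand, the Gad1 window chr2:70561879-70562128 on the plus strand and the Gad2 window chr2:22622077-22622326 on the plus strand.
Tal2: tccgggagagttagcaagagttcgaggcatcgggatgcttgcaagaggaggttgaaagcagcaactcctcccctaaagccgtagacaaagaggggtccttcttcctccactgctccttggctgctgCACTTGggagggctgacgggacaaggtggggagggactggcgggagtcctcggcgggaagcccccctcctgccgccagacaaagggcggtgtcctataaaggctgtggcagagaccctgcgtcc
Sox14: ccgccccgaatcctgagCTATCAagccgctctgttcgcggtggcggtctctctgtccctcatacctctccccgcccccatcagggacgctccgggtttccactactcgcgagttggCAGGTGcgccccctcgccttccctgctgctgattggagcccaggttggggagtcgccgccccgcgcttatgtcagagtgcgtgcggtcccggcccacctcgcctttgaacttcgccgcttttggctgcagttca
Gad1: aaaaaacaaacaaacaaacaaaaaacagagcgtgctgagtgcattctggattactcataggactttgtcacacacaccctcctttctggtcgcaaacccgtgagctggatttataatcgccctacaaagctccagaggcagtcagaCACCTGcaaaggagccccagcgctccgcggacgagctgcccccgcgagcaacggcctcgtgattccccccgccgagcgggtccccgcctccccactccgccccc
Gad2: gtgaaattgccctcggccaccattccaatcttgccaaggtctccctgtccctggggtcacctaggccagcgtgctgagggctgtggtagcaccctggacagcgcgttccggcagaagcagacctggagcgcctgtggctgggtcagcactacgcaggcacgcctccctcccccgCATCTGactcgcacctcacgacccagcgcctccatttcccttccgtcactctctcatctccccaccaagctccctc

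The Tal2 window held 1 E-box, CACTTG, 124 bases before the start. Sox14 held both kinds of motif, CTATCA at 233 bases and the E-box CAGGTG at 134 bases. Gad1 and Gad2 held 1 E-box each, CACCTG at 104 bases and CATCTG at 76 bases. Over all 11 windows listed for the 9 genes (Gata2 and Tal1 have 2 each), 3 held a GATA motif and 6 an E-box. Among 32851 promoters of the same length, 26.5% held a GATA motif and 66.2% an E-box. The Dlx-type homeodomain core TAATTA was in 0 of the 11 windows and in 4.84% of all promoters. The windows thus held neither motif much more often than promoters in general, and a match is a run of letters, not a measured binding site.

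The midbrain selector genes were far higher in midbrain than in forebrain. In wildtype embryos Gata2, Gata3, Tal1, Tal2, Helt and Gad1 passed the test, and each was lower in forebrain. No member was called higher there, beside 14.3% of all genes tested, a share too small to set so few members apart. Without Sox14, 6 of 8 members were called lower, where 15.3% of all genes tested were called lower and 29.6% were called in either direction. Among these 6 the largest difference was that of Tal2 and the smallest that of Gad1. The plot of levels by library shows the gap for each gene.

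**Figure D1:**
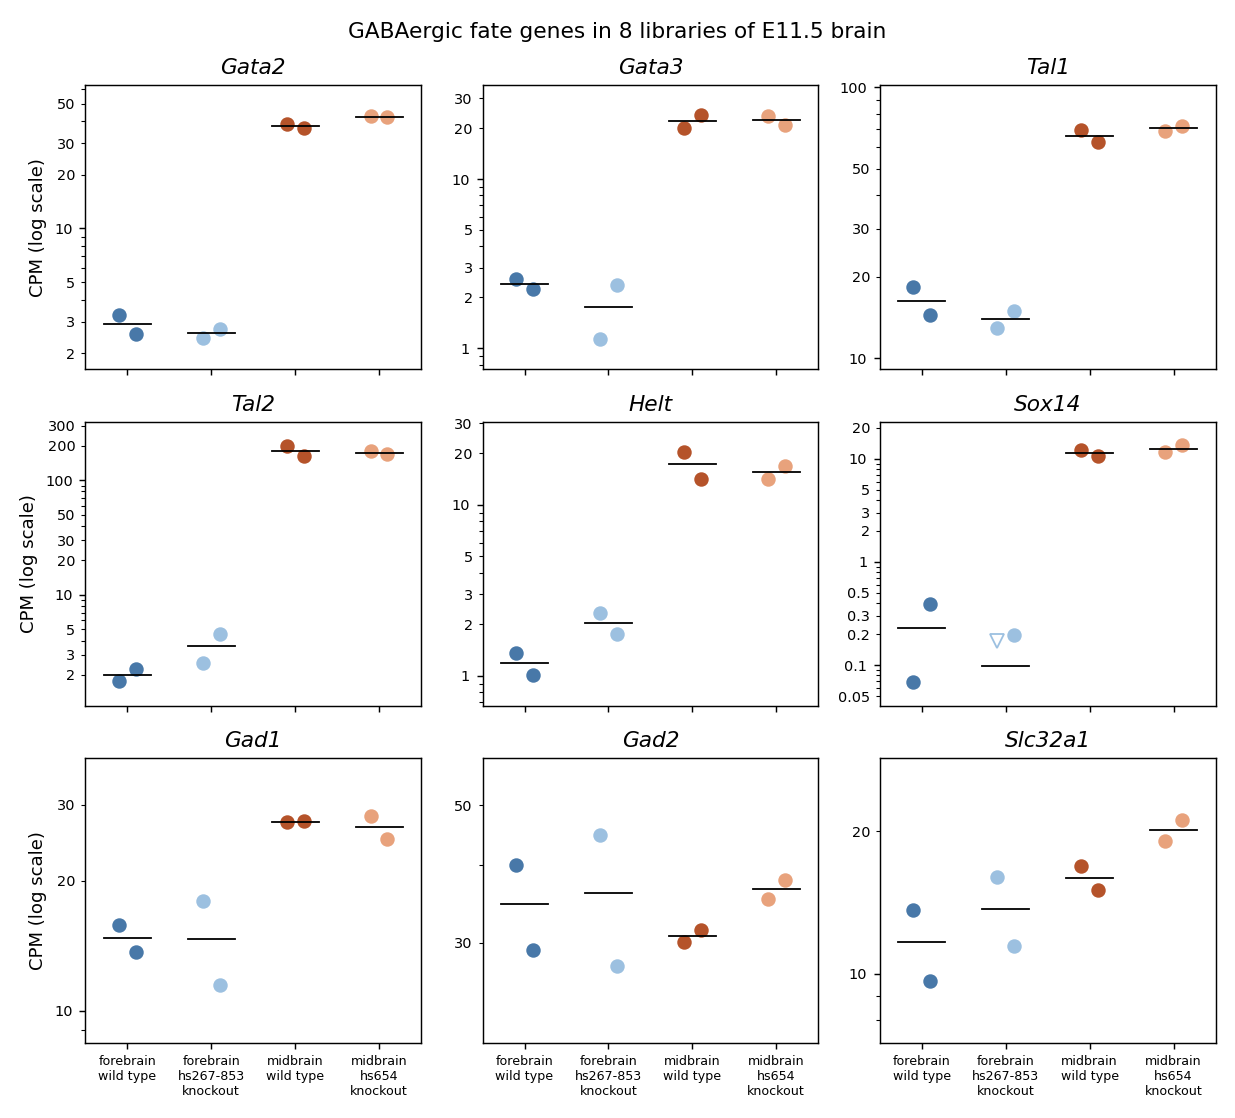
Levels (CPM, log scale) of the 9 genes in each of the 8 libraries, with 2 pools in each of the 4 groups. Points are libraries and lines are group means, and the open triangle for Sox14 stands at the level of 3 counts for a library with 0 counts. The 6 transcription factor genes and Gad1 sit higher in all 4 midbrain libraries than in any forebrain library, while the forebrain and midbrain points of Gad2 overlap.

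Levels are given in CPM, counts relative to the TMM-scaled size of the library. CPM does not correct for transcript length, so a level is compared across libraries for 1 gene and never between genes. In RNA of a whole tissue, fewer cells of a type and less RNA per cell cannot be told apart.

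Tal2 (chr4:53779701-53788712) had 1.76 and 2.24 CPM in the wildtype forebrain pools and 198 and 162 CPM in the wildtype midbrain pools. The knockout pools had 2.55 and 4.58 CPM in forebrain and 179.7 and 169 CPM in midbrain. Every midbrain library was far above every forebrain library. In wildtype embryos the log2 difference, forebrain minus midbrain, was -6.49 (SE 0.187, 95% interval -6.90 to -6.09), which is 90.1-fold lower in forebrain (adjusted p = 1.38e-10, edgeR's quasi-likelihood test).

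Tal1 (chr4:115056426-115071755), the paralogue shared with blood and vessel precursors, had 18.3 and 14.4 CPM in wildtype forebrain and 69.3 and 62.9 CPM in wildtype midbrain. The knockout pools had 12.9 and 15.0 CPM in forebrain and 69.3 and 72.1 CPM in midbrain. The tissues did not overlap, but the gap was narrower than for Tal2, Gata2, Gata3 or Helt. The wildtype difference was -2.01 on the log2 scale (SE 0.121, 95% interval -2.28 to -1.75), or 4.04-fold lower in forebrain (adjusted p = 6.46e-08, edgeR's quasi-likelihood test). The ratio of Tal1 to Tal2 counts was 3.27 to 10.35 in the 4 forebrain libraries and 0.351 to 0.427 in the 4 midbrain libraries. The 2 paralogues thus took unequal shares of their joint counts in the 2 tissues.

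Gata2 (chr6:88193891-88207032), which is switched on as the precursors leave the cell cycle, had 3.26 and 2.55 CPM in wildtype forebrain and 38.5 and 36.7 CPM in wildtype midbrain. In the knockout pools it had 2.44 and 2.75 CPM in forebrain and 42.4 and 41.8 CPM in midbrain. Pools of 1 group lay close together, and no forebrain value came near a midbrain value. Between the wildtype tissues the difference was -3.68 (SE 0.151, 95% interval -4.01 to -3.35), or 12.8-fold lower in forebrain (adjusted p = 2.13e-09, edgeR's quasi-likelihood test).

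Gata3 (chr2:9857078-9887953), a GATA factor with a related zinc finger domain, had 2.58 and 2.24 CPM in wildtype forebrain and 20.2 and 23.8 CPM in wildtype midbrain. The knockout pools had 1.13 and 2.36 CPM in forebrain and 23.6 and 20.97 CPM in midbrain. Again the tissues did not overlap, and the lowest value was that of hs267-853 knockout forebrain pool 1. The wildtype difference was -3.18 (SE 0.239, 95% interval -3.69 to -2.66), or 9.04-fold lower in forebrain (adjusted p = 5.13e-07, edgeR's quasi-likelihood test). The ratio of Gata2 to Gata3 counts was 1.14 to 2.15 in forebrain and 1.54 to 1.995 in midbrain. These ranges overlap, unlike those of Tal1 and Tal2.

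Helt (chr8:46292043-46294748) works in progenitors, before the GATA and TAL genes. It had 1.36 and 1.01 CPM in wildtype forebrain and 20.3 and 14.1 CPM in wildtype midbrain. Knockout forebrain had 2.33 and 1.77 CPM and knockout midbrain 14.1 and 16.9 CPM. All midbrain values were well above the forebrain values. Between the wildtype tissues the difference was -3.85 (SE 0.276, 95% interval -4.45 to -3.25), or 14.4-fold lower in forebrain (adjusted p = 3.36e-07, edgeR's quasi-likelihood test).

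Sox14 (chr9:99874106-99876170), a marker of GABAergic precursors, was close to the limit of detection in forebrain. Its raw counts were 1 and 5 in wildtype forebrain and 0 and 3 in knockout forebrain, against 193 and 134 in wildtype midbrain and 134 and 124 in knockout midbrain. In CPM the midbrain libraries had 12.2, 10.7, 11.53 and 13.55, and the highest forebrain library 0.387. A library with 0 counts could hold up to 3 counts, which is 0.170 to 0.328 CPM over these libraries and covers counting error only. From the summed counts, Sox14 was 53.2-fold higher in wildtype midbrain than in wildtype forebrain, with an exact 95% interval of 24.2 to 146 for counting error only. As Sox14 passed the filter through midbrain alone, this interval is a description and no test of the tissues. The fitted log2 difference, given with no test, was -5.66, and it moved with single pools, to -4.86 without wildtype forebrain replicate 1 and -7.22 without wildtype forebrain replicate 2.

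The GABA synthesis and transport genes differed much less between the tissues than their midbrain regulators. Gad1 was lower in forebrain in both tissue contrasts, that of the wildtype and that of the knockout pools. Gad2 did not pass the test in either, and Slc32a1 lay near the threshold.

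Gad1 (chr2:70561303-70602014), the gene of the enzyme that supplies GABA throughout the cell, had 15.8 and 13.7 CPM in wildtype forebrain and 27.45 and 27.5 CPM in wildtype midbrain. The knockout pools had 17.9 and 11.46 CPM in forebrain and 28.3 and 25.0 CPM in midbrain. All 4 midbrain libraries were above all 4 forebrain libraries. The wildtype difference was -0.89 (SE 0.175, 95% interval -1.27 to -0.51), or 1.86-fold lower in forebrain (adjusted p = 0.00199, edgeR's quasi-likelihood test).

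Gad2 (chr2:22621015-22693877), the gene of the enzyme associated with vesicles and nerve endings, had 40.1 and 29.3 CPM in wildtype forebrain and 30.1 and 31.5 CPM in wildtype midbrain. The knockout pools had 44.7 and 27.6 CPM in forebrain and 35.4 and 37.9 CPM in midbrain. The forebrain pools spanned the whole midbrain range. Between the wildtype tissues the difference was 0.18 (SE 0.192), with a 95% interval of -0.24 to 0.59 (adjusted p = 0.536, edgeR's quasi-likelihood test).

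Slc32a1 (chr2:158607260-158615747), the gene of the vesicular transporter shared by GABA and glycine neurons, had 13.6 and 9.67 CPM in wildtype forebrain and 16.9 and 15.0 CPM in wildtype midbrain. The knockout pools had 16.0 and 11.46 CPM in forebrain and 19.1 and 21.1 CPM in midbrain. The tissues did not overlap within the wildtype pools or within the knockout pools, but knockout forebrain pool 1 exceeded a wildtype midbrain pool. Such a lack of overlap, in either direction, held for 65.9% of all genes tested in the wildtype pools and 64.4% in the knockout pools. The wildtype difference was -0.45 (SE 0.192, 95% interval -0.87 to -0.03, adjusted p = 0.099, edgeR's quasi-likelihood test). The call turned with single pools: without wildtype forebrain replicate 1 the difference was -0.72 (adjusted p = 0.0417, edgeR's quasi-likelihood test), and without wildtype forebrain replicate 2 it was -0.23 (adjusted p = 0.503, same test). It also passed without either knockout forebrain pool, at -0.45 each time (adjusted p = 0.0442 and 0.0455, edgeR's quasi-likelihood test).

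**Figure D2:**
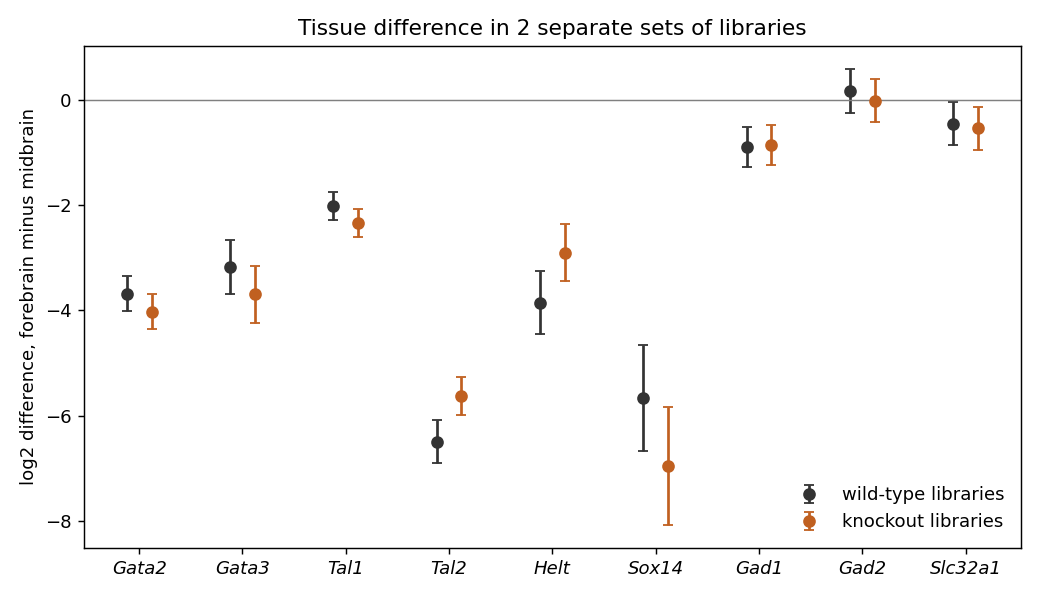
Log2 difference, forebrain minus midbrain, of the 9 genes in wildtype and in knockout embryos (2 pools per group). Points are fitted differences and bars their 95% intervals. Tal2 and Sox14 lie farthest below 0, the intervals of Gad1 stay below 0 in both contrasts, and those of Gad2 span 0. Sox14 had enough counts in midbrain alone, and its points and bars are a description.

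The tissue contrast was measured again in the knockout libraries, which share no pool with the wildtype contrast but differ in the knockout genotype as well as in tissue. Both contrasts came from the same fit over all 8 libraries, with a shared estimate of the spread, so their p-values are not independent. Here 7 of 8 members were called lower in forebrain, again without Sox14, against 14.8% of all genes tested called lower, 14.6% called higher and 29.4% called in either direction. The differences were -5.63 for Tal2, -4.02 for Gata2, -3.70 for Gata3, -2.90 for Helt and -2.34 for Tal1, with adjusted p of 1.6e-10 to 2.08e-06 by edgeR's quasi-likelihood test. Gata3 moved to -4.29 without knockout forebrain replicate 2. Gad1 differed by -0.85 (SE 0.177, adjusted p = 0.00261, edgeR's quasi-likelihood test). Gad2 differed by -0.01, with a 95% interval of -0.43 to 0.40 (adjusted p = 0.971, edgeR's quasi-likelihood test).

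Slc32a1 was the only member that passed in the knockout contrast alone, at -0.54 (SE 0.188, adjusted p = 0.0464, edgeR's quasi-likelihood test). It lost the call without knockout forebrain replicate 2 (-0.32, adjusted p = 0.241), and also without either wildtype midbrain pool or either knockout midbrain pool (adjusted p = 0.0534 to 0.223, all by edgeR's quasi-likelihood test). In DESeq2 its adjusted p was 0.0654. For Sox14, 3 summed counts in knockout forebrain stood against 258 in knockout midbrain, a rate 136.2-fold higher in midbrain. Its exact 95% interval, 46.1 to 664.5, covers counting error only and is a description, not a test. Over wildtype and knockout pools together, 6 of the 8 members other than Sox14 had all 4 forebrain libraries below all 4 midbrain libraries, as did 20.3% of all genes tested. Gad2 and Slc32a1 were the 2 that did not. The same 6 members were called lower in both tissue contrasts, as were 11.8% of all genes tested.

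The proportions of the GABA genes to one another also separated the tissues, though they rest on the same counts as the levels above. The ratio of Gad1 to Gad2 counts was 0.394, 0.468, 0.401 and 0.416 in the 4 forebrain libraries, and 0.912, 0.873, 0.801 and 0.660 in the 4 midbrain libraries. The ratio was therefore higher in every midbrain library than in any forebrain library. The ratio of Slc32a1 to Gad2 counts was 0.331 to 0.416 in forebrain and 0.477 to 0.561 in midbrain, likewise without overlap. A ratio of counts from 2 genes depends on their lengths, so only its change from library to library is read here.

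General neuronal genes differed between the tissues and varied between the forebrain pools. The summed level of 9 general neuronal genes (among them Tubb3, Dcx, Stmn2 and Gap43) was 1836.5 and 1608.3 CPM in wildtype forebrain, 2055.3 and 1460.0 CPM in knockout forebrain and 3161.9 to 3585.3 CPM in midbrain. All 9 were called lower in wildtype forebrain, most of all Snap25 (-1.99), Gap43 (-1.81) and Stmn2 (-1.47). Within each forebrain genotype, the pool with the higher neuronal sum was also the pool with more Gad1, Gad2 and Slc32a1. The part of neuronal content in the differences of the GABA genes was not tested.

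Set against that sum, an expression added after the values were seen, Gad1 was at 8.61, 8.52, 8.72 and 7.85 CPM per 1000 CPM of neuronal genes in forebrain and at 8.22, 8.69, 8.15 and 6.98 in midbrain, with the tissues overlapping. Gad2 was at 21.8, 18.2, 21.75 and 18.9 in forebrain and at 9.02, 9.95, 10.2 and 10.6 in midbrain, so that it was higher in every forebrain library. Slc32a1 was at 6.02 to 7.85 in forebrain and 4.75 to 5.88 in midbrain, also higher in every forebrain library. Against all counts Slc32a1 was lower in forebrain within the wildtype pools and within the knockout pools, and Gad2 overlapped, so for both the direction depends on the scale. Tal2 kept its direction on this scale, at 0.96 to 3.14 in forebrain and 47.1 to 59.2 in midbrain. Gata2 kept its direction as well, at 1.19 to 1.88 in forebrain and 11.52 to 12.2 in midbrain. So did Gata3 (0.552 to 1.62 and 5.85 to 7.53), Helt (0.626 to 1.21 and 4.06 to 6.08) and Sox14 (0 to 0.241 and 3.32 to 3.78). Tal1 also kept it, with the tissues closest among the regulators, at 6.27 to 10.3 in forebrain and 19.9 to 20.8 in midbrain.

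**Figure D3:**
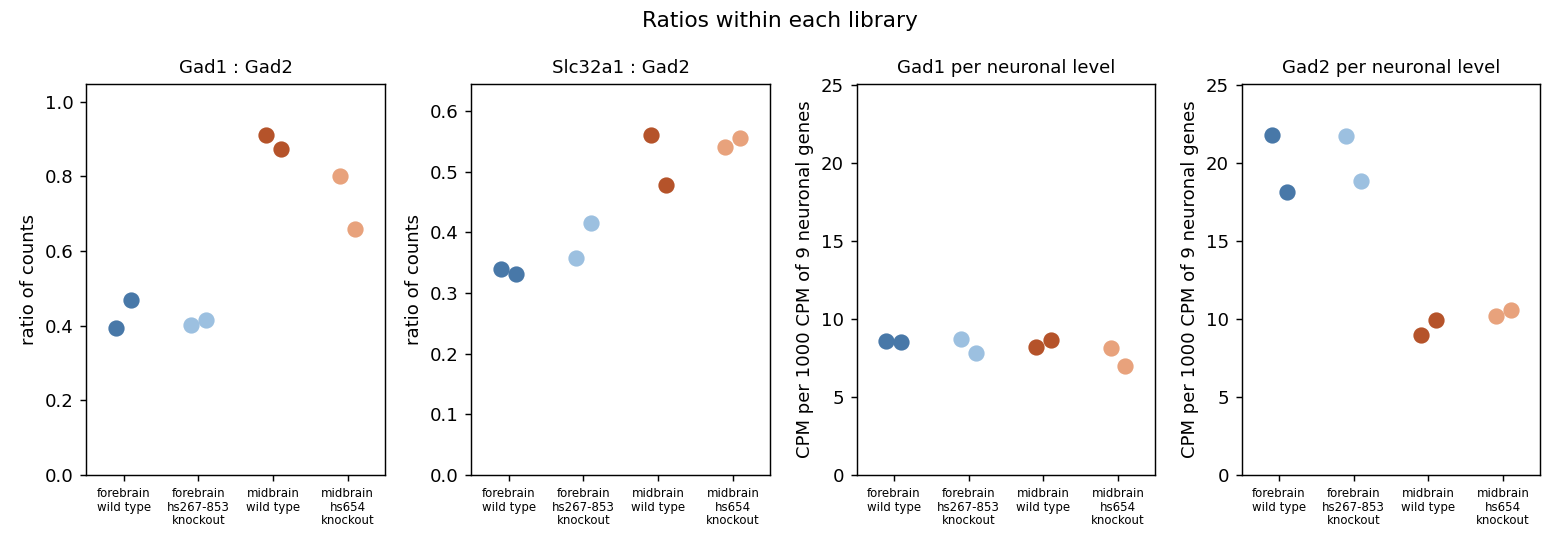
Ratios of counts of Gad1 to Gad2 and of Slc32a1 to Gad2, and levels of Gad1 and Gad2 in CPM per 1000 CPM of 9 general neuronal genes, in each of the 8 libraries (axes start at 0). Points are libraries, 2 pools in each of the 4 groups. Both ratios are higher in every midbrain library, Gad1 per neuronal level overlaps between the tissues, and Gad2 per neuronal level is higher in every forebrain library.

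Most genes of the telencephalic GABAergic programme were higher in forebrain. Of 16 subpallial GABAergic lineage genes, 14 had enough counts in both tissues, and 9 of these were called higher and 3 lower in wildtype forebrain, with a median log2 difference of 1.5 beside 0.0012 over all genes tested. Among those higher was Dlx2 (3.66). The other 2 were tested through forebrain alone, so their levels are a description: Gsx2, a progenitor homeobox gene of the lateral ganglionic eminence, at 13.9 to 21.8 CPM in forebrain and 0.218 to 0.774 CPM in midbrain, and Lhx8, a LIM homeobox gene of ventral telencephalic neurons, at 3.06 to 6.35 CPM in forebrain, with 0 counts in 3 midbrain libraries and 4 counts in the other. Dlx2 had 70.7 and 55.0 CPM in wildtype forebrain, 81.3 and 51.6 CPM in knockout forebrain and 4.93 to 6.55 CPM in midbrain. The forebrain pools with more Dlx2 were those with more Gad1, Gad2 and Slc32a1. Ebf1, Gsx1 and Foxp2 of the subpallial list went the other way. Their mean levels were 16.2, 2.38 and 53.7 CPM in wildtype forebrain and 82.9, 12.6 and 74.2 CPM in wildtype midbrain.

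Of 13 midbrain and diencephalic GABAergic lineage genes tested, of 14 listed, 11 were called lower and 1 higher in wildtype forebrain, with a median of -0.99. The largest differences were those of the homeobox genes Nkx2-2 (-6.60, with 2 counts in each wildtype forebrain pool), Nkx6-1 (-3.74) and Lhx1 (-3.12), which pattern ventral progenitors or mark young neurons. Partner genes of the GATA and TAL factors, such as the LIM-only and Ldb cofactors and E-proteins, had no common direction: 5 of 15 were called higher and 6 lower, with a median of 0.07. Nhlh2, a bHLH gene of young neurons, differed by -1.75, Zfpm2, which encodes the GATA cofactor FOG2, by -1.41, and Ldb2, which encodes an adaptor of LIM proteins, by 1.05. Genes of GABA transport and breakdown were nearly level, with 1 of 8 called, Slc6a13 (-1.46), which encodes a GABA transporter, and it was lost in DESeq2 (adjusted p = 0.0957) and without any 1 of 5 pools, with the smallest value without wildtype midbrain replicate 1 (-0.97, adjusted p = 0.300, edgeR's quasi-likelihood test).

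**Figure D4:**
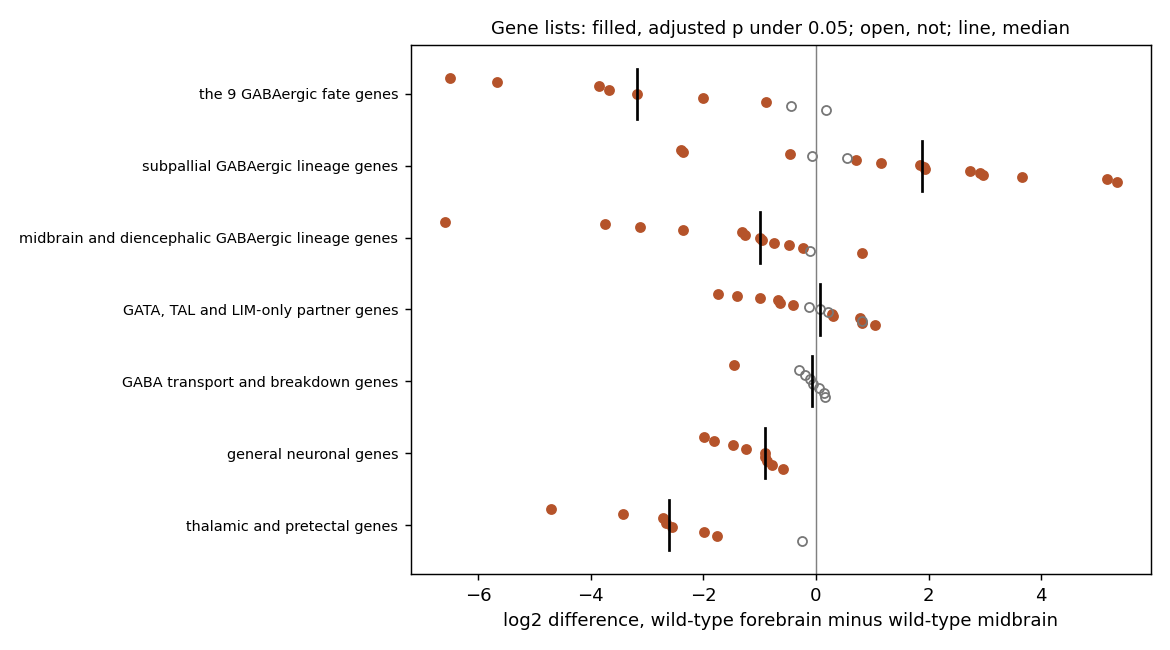
Log2 difference, wildtype forebrain minus wildtype midbrain, of the 9 genes and of 6 lists of related genes (2 pools per group). Filled points passed an adjusted p of 0.05, open points did not, and the vertical marks are list medians. Sox14, Gsx2 and Lhx8 had enough counts in 1 tissue alone, and their points are a description. Subpallial genes lie mostly above 0, and midbrain and diencephalic GABAergic lineage genes, thalamic genes and neuronal genes mostly below 0.

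Most regional markers followed the tissue labels. Of the forebrain regional genes, 5 of 7 tested were called higher in wildtype forebrain, among them Emx1 (4.47) and Fezf2 (4.06), and 2 were called lower, Otp (-3.05) and Lhx9 (-1.05). Of 9 midbrain regional genes, 6 had enough counts in both tissues, of which 5 were called lower, among them Cnpy1 (-6.41) and Pax5 (-5.86), and Meis2 was called higher (0.54). En2 was at 130.2 to 158 CPM in the midbrain libraries, and each forebrain library had 0 counts of it. Of 4 hindbrain and serotonergic genes tested, of 8 listed, 3 had enough counts in 1 tissue alone, among them Fev, which had 0 counts in both wildtype forebrain pools and 4 and 9 in the wildtype midbrain pools. Of 8 thalamic and pretectal genes, which mark a region where Gata2, Gata3, Tal1 and Sox14 are also made, 7 were called lower in wildtype forebrain, with a median of -2.61. Dbx1 (-4.71), Foxb1 (-3.43) and Tcf7l2 (-2.73) differed most. The 8 genes summed to 146.9 to 208.6 CPM in forebrain and 686.1 to 787.8 CPM in midbrain. How much of the signal of the members came from diencephalic tissue, in the forebrain or in the midbrain libraries, was not tested.

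Glutamatergic lineage genes were split, with 3 called higher and 4 lower of the 9 with enough counts in both tissues. The other 3 were tested through 1 tissue alone and are described by their levels. Neurod6 and Eomes, bHLH and T-box genes of the developing cortex, were at 1.83 to 8.21 CPM and 112.8 to 130.4 CPM in forebrain, with 0 to 2 counts and 2 to 25 counts in the midbrain libraries. Barhl1, a neuronal homeobox gene, was at 36.4 to 42.4 CPM in midbrain, with 2 to 4 counts in the forebrain libraries. Of the neural progenitor genes, 5 of 9 were called higher and 2 lower, with differences of 1.28 for Hes1, 1.18 for Pax6 and -1.02 for Fabp7.

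Gata2, Gata3 and Tal1 are also made in blood or vessel cells, so markers of these were measured beside them. The 10 erythroid genes measured, of 11 listed, summed to 4218 to 4928 CPM in forebrain and 3447 to 6959 CPM in midbrain, and none was at 0 in any library. Of the 10, 1 was called, Hbb-bs, at -0.81. The 10 endothelial genes summed to 341 to 349 CPM in forebrain and 267 to 331 CPM in midbrain, higher in every forebrain library, and 2 were called, Egfl7 (0.41) and Kdr (0.33). All 3 calls, of Hbb-bs, Egfl7 and Kdr, were lost without wildtype midbrain replicate 1, at -0.16, 0.26 and 0.19 (adjusted p = 0.578, 0.328 and 0.155, edgeR's quasi-likelihood test), and also without wildtype forebrain replicate 2. Of 8 haematopoietic and mast cell genes tested, of 9 listed, Csf1r (-0.89) was called lower and Cd34 (0.52) higher. Gata1, the erythroid GATA gene, was at 1.83 to 3.46 CPM in forebrain and 1.42 to 1.90 CPM in midbrain, a wildtype difference of 0.81 (adjusted p = 0.126, edgeR's quasi-likelihood test). In forebrain, where Tal1 was at 12.9 to 18.3 CPM and Tal2 at 1.76 to 4.58 CPM, the share of Tal1 from blood or vessel cells was not tested.

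Some members lie over other annotated genes, and the strand setting of the counting is not given in the sources used here, so reads could be shared with an antisense partner. Gm14204, which overlaps Slc32a1, had 197 to 322 counts per library, at 14.9 to 22.6 CPM, and differed by -0.17 between the wildtype tissues (adjusted p = 0.412, edgeR's quasi-likelihood test). Slc32a1 itself had 125 to 282 counts, so its values are uncertain. Between the knockout tissues Gm14204 differed by -0.41 (adjusted p = 0.0499, edgeR's quasi-likelihood test). The 2 genes over Gata3 were low, 4930412O13Rik with 12 to 59 counts and 9230102O04Rik with 1 to 27 counts, and both were lower in wildtype forebrain (-1.15 and -2.39). Gad1os, over Gad1, had 5 to 17 counts and Mir3967, over Gad2, 0 to 2 counts. Gm38708, over Gata2, and Gm33786, over Tal1, are not among the counted genes, so a sharing of reads with them could not be checked. RefSeq lists no gene over Tal2, Helt or Sox14.

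In the hs267-853 knockout forebrain, no member passed the test. Of the 15383 genes, 2 did (0.013%), and 736 had an unadjusted p under 0.05 (4.78%), of which Tal2 and Helt were members. Values for Tal2 were 1.76 and 2.24 CPM in wildtype and 2.55 and 4.58 CPM in knockout forebrain, and the 2 groups did not overlap. The log2 difference, knockout minus wildtype, was 0.81 (SE 0.307, 95% interval 0.15 to 1.48, adjusted p = 0.984, edgeR's quasi-likelihood test). Helt had 1.36 and 1.01 CPM in wildtype and 2.33 and 1.77 CPM in knockout, also without overlap, and differed by 0.79 (SE 0.345, 95% interval 0.04 to 1.53, adjusted p = 0.984, same test). In 17.2% of all genes tested both knockout pools were above both wildtype pools, beside 2 of 9 members.

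The other members were nearer to 0 or uncertain. Gata2 differed by -0.18 (95% interval -0.61 to 0.26), Gata3 by -0.50 (-1.18 to 0.19) and Tal1 by -0.24 (-0.52 to 0.05). Sox14 had 6 counts in wildtype and 3 in knockout forebrain, a rate ratio of 0.420 with an exact 95% interval of 0.0680 to 1.97 for counting error, so a change was not detectable at this depth. Gad1 differed by -0.00 (-0.39 to 0.39), Gad2 by 0.06 (-0.35 to 0.47) and Slc32a1 by 0.23 (-0.18 to 0.65). For Gad1 and Gad2 the 2 knockout pools lay on either side of both wildtype pools, as with 17.9 and 11.46 CPM of Gad1 in the knockout against 15.8 and 13.7 CPM in the wildtype. For Slc32a1 the groups overlapped.

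A single gene of the lists passed the test in this comparison. Lhx1, a LIM homeobox gene of young GABAergic and other neurons of the midbrain and diencephalon, had 8.89 and 8.51 CPM in wildtype and 18.5 and 15.7 CPM in knockout forebrain. Both knockout pools were above both wildtype pools, and Lhx1 rose by 0.98 on the log2 scale (adjusted p = 0.012, edgeR's quasi-likelihood test). The difference stayed between 0.85 and 1.09 in all alternatives, but the call was lost with only the 4 forebrain libraries (adjusted p = 1) and without either wildtype forebrain pool (adjusted p = 0.139 and 0.0606) or either knockout midbrain pool (adjusted p = 0.0601 and 0.0631, all by edgeR's quasi-likelihood test). The other 12 tested genes of its list did not pass. Among the partner genes, the smallest p was that of Nhlh2, at 0.31 (adjusted p = 0.984, edgeR's quasi-likelihood test), and it passed without knockout forebrain replicate 2 (0.46, adjusted p = 0.0197, same test). In the subpallial and glutamatergic lists the smallest p were those of Sp8, at 0.18 (adjusted p = 0.984), and Neurod6, at -1.30 (adjusted p = 0.963, both by edgeR's quasi-likelihood test). Beside this, 6 of 8 thalamic and pretectal genes had a higher fitted value in the knockout and none passed, with a median of 0.56 beside 0.00778 over all genes. Their summed level was 146.9 and 159.2 CPM in wildtype and 163.6 and 208.6 CPM in knockout forebrain, and the pool with the highest sum, knockout pool 2, also had the most Tal2 but not the most Helt. Nkx2-2, a diencephalic and ventral midbrain gene, had 2 counts in each wildtype pool and 71 and 15 counts in the knockout pools (adjusted p = 0.247, edgeR's quasi-likelihood test). Nkx6-1, from the same lineage list as Nkx2-2, went the other way, with 18 and 23 counts in wildtype and 14 and 5 in knockout forebrain. Of the 13 tested genes of that list, 10 had a higher and 3 a lower fitted value in the knockout. The part of diencephalic tissue in the values of Tal2, Helt and Lhx1 was not tested.

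**Figure D5:**
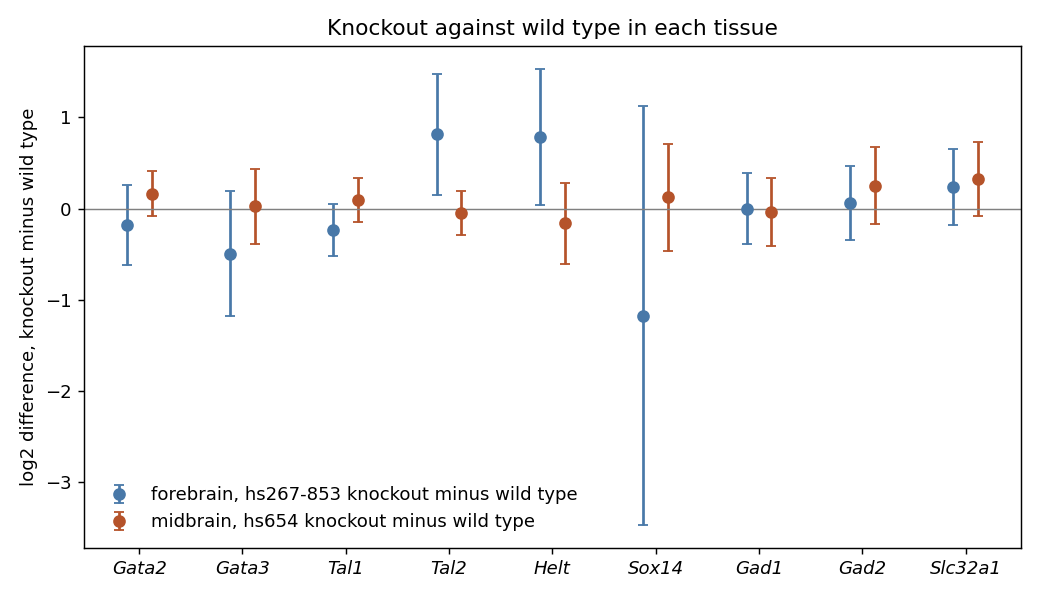
Log2 difference, knockout minus wildtype, of the 9 genes for the hs267-853 knockout in forebrain and the hs654 knockout in midbrain (2 pools per group). Points are fitted differences and bars their 95% intervals. The intervals of Tal2 and Helt in forebrain lie just above 0 and the others span 0, and no member passed after adjustment.

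In the hs654 knockout midbrain, where the members are well expressed, no member passed the test either. None of the 15383 genes did (0%), and 609 had an unadjusted p under 0.05 (3.96%), none of them a member. Tal2 had 198 and 162 CPM in wildtype and 179.7 and 169 CPM in knockout midbrain and differed by -0.05 (95% interval -0.29 to 0.20). Gata2 had 38.5 and 36.7 CPM in wildtype and 42.4 and 41.8 CPM in knockout and differed by 0.16 (95% interval -0.08 to 0.41). Tal1 differed by 0.09, Gata3 by 0.02, Sox14 by 0.12 and Helt by -0.16.

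Gad1 had 27.45 and 27.5 CPM in wildtype and 28.3 and 25.0 CPM in knockout midbrain, a difference of -0.04 (95% interval -0.41 to 0.33). Gad2 had 30.1 and 31.5 CPM against 35.4 and 37.9 CPM, a difference of 0.25 (-0.17 to 0.67), and Slc32a1 16.9 and 15.0 CPM against 19.1 and 21.1 CPM, a difference of 0.33 (-0.08 to 0.73). Gata2, Gad2 and Slc32a1 had both knockout pools above both wildtype pools, 3 of 9 members, where the same held for 17.9% of all genes tested. All adjusted p were 0.992 to 0.999 by edgeR's quasi-likelihood test. The general neuronal genes had a higher fitted value in 9 of 9 cases, with a median of 0.12 and none called. Among the partner genes Tcf12 had the smallest p, at -0.11, and in the lineage list Lhx1 had the smallest p, at 0.25 (adjusted p = 0.992, edgeR's quasi-likelihood test). Sp9 had it in the subpallial list, at 0.41, and Neurod1 in the glutamatergic list, at 0.25 (adjusted p = 0.992 for both, edgeR's quasi-likelihood test). The erythroid genes had a lower fitted value in 9 of 10, with a median of -0.48 and none called. In midbrain wildtype pool 1 their summed level was the highest of all libraries, at 6959 CPM.

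The effects of the 2 knockout genotypes were compared as a difference of differences, in which genotype and tissue cannot be told apart. No member passed (1 of all genes did, 0.0065%, and 619 had an unadjusted p under 0.05, 4.02%). The members with an unadjusted p under 0.05 were Tal2, whose midbrain effect was lower than its forebrain effect by a log2 difference of -0.86 (SE 0.328, adjusted p = 0.996, edgeR's quasi-likelihood test), and Helt, at -0.95 (SE 0.401, adjusted p = 0.996, same test). With the filter on low counts removed, Tal2 passed in this comparison. The number of all genes called in that run is not given here. Without the filter, more genes were also called in each of the knockout comparisons, so the call is not read as particular to Tal2.

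Other genes followed the same 2-level pattern, and many did so, in 8 libraries that share 2 tissues. Over 12292 genes of at least 5 CPM in some group, 783 had a Pearson r above 0.95 with Tal2 over the 8 libraries, led by Atp8a1, Mturn and Kcnk9, all at 0.998. For Gata2 the number was 886, led by Hspa12a, and for Gad1 436, led by Hes5, an effector of Notch signalling (r = 0.993). Gad2, which did not follow the tissue split, had 5 such genes, led by Islr2 (0.978), Ube2b (0.973) and Auts2 (0.963), and Slc32a1 had 26, led by H2bu2 (0.983). These values describe the libraries and carry no test.

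Total gene counts per library ran from 9051632 to 18024406. The first principal component, with 72.1% of the variance, separated the tissues, and the second, with 6.33%, set hs267-853 knockout forebrain pool 1 apart from the other libraries. That pool had the highest Gad1, Gad2 and Slc32a1 levels of the 4 forebrain pools and the lowest Gata3 level. Without it, the knockout tissue difference of Slc32a1 was -0.80.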

How the data were processed

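Poly(A) RNA of 8 pools of E11.5 mouse brain tissue was analysed; the other 21 of the 29 samples, enhancer-capture Hi-C, were not analysed here. The authors deposited raw counts per gene symbol for each library. The submitters' processing notes name STAR, HTSeq, DESeq2 and the build mm10, without versions or roles; annotation and strand setting are not given in the sources used here. Of the reads counted in genes, no feature or ambiguous positions, genes took 40.7% to 44.1% and rows naming no gene were left out.

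From these counts, genes with at least 0.717 CPM in 2 libraries and a total of 15 (filterByExpr) were tested with edgeR 4.0.16 in R 4.3.3, with TMM scaling (factors 0.978 to 1.01), a quasi-likelihood fit with a mean per group over all 8 libraries (residual df 4, common dispersion 0.0058), two-sided tests, and Benjamini-Hochberg adjustment over 15383 genes at 0.05. The group structure came from tissue, genotype and replicate number in the titles. Alternatives were RLE scaling, no filter, DESeq2 1.42.0, a replicate block, the 4 libraries compared alone, and each library left out. Correlations used log2 CPM with a prior count of 2.

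The members and the gene lists were chosen with earlier results of these data known. Genes with at least 0.717 CPM in fewer than 2 libraries of a tissue were left out of counts of tissue calls in the lists. All 9 members are named; from each list, up to 3 genes with the largest wildtype tissue difference past the threshold are named, and in the knockout comparisons any list gene past it, or else, for the partner and lineage lists, the gene with the smallest p. A gene that the rule would name is not reported here. Dlx2 and Gata1 values per library, the means of Ebf1, Gsx1 and Foxp2, and the thalamic and general neuronal sums, were added as context for the members. The forebrain counts of Nkx2-2 and Nkx6-1 in the knockout comparison were added likewise. Likeness was Pearson's r over the 8 libraries, with the 3 closest genes of at least 5 CPM per member; not all are printed. Positions and promoters are from RefSeq (GRCm38.p6). Same-numbered pools did not vary together (correlation of deviations -0.0255 to 0.067), so the replicate number was not taken as a pairing.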

Additional observations from a re-analysis of the deposited data

How the results depend on the processing

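The calls given here leave out Sox14, which entered the tissue tests through midbrain alone. Gata2, Gata3, Tal1, Tal2, Helt and Gad1 were called lower in forebrain under all alternatives, in wildtype and in knockout embryos. Gad2 was called under none, and Slc32a1 was the member that moved. Its wildtype difference passed with no filter (adjusted p = 0.0314, edgeR's quasi-likelihood test), and its knockout difference was lost in DESeq2 (adjusted p = 0.0654). The replicate block changed no call of a member in the 2 tissue comparisons, and gave 0 members in both knockout comparisons and in their difference. With no filter on low counts, the difference of the deletion effects had 1 member called, Tal2 (-0.85, adjusted p = 0.0416, edgeR's quasi-likelihood test). How many of all genes that run called is not given here. In the 2 knockout comparisons 0 members were called under every alternative.

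Leaving out 1 library turned signs that lay near 0. The lowest and highest values were -0.072 to 0.39 for Gad2 between wildtype tissues and -0.41 to 0.29 between knockout tissues. For hs267-853 they were -0.33 to 0.019 for Gata2, -4.61 to 0.39 for Sox14, -0.37 to 0.28 for Gad1, -0.34 to 0.36 for Gad2 and -0.032 to 0.51 for Slc32a1. For hs654 they were -0.090 to 0.14 for Gata3, -0.18 to 0.11 for Tal2, -0.39 to 0.13 for Helt and -0.12 to 0.043 for Gad1. For the difference they were -0.26 to 4.73 for Sox14, -0.32 to 0.33 for Gad1, -0.11 to 0.58 for Gad2 and -0.18 to 0.36 for Slc32a1. In the knockout tissue contrast, Sox14 was at -5.92 without knockout forebrain replicate 1 and -10.4 without replicate 2, which leaves a pool with 0 counts.

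The background counts moved more than the members' calls. Between wildtype tissues 4548 genes were called, and 2816 without wildtype midbrain replicate 1. For hs267-853, 2 were called, 161 with no filter, 12 with DESeq2 and 209 without knockout forebrain replicate 2. For hs654, 0 were called and 22 with no filter. The causes were not tested. Of the other list genes put through these alternatives (not En2, Fev or the overlapping genes), none turned its sign under any alternative run, and Lhx1, Slc6a13, Hbb-bs, Egfl7, Kdr, Nhlh2 and Neurod6 crossed the threshold in some.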
